A study of Mus musculus with 4 samples.

Results

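P-IV-like cells were CD11b+ splenocytes of GM-CSF-treated mice that carried the P-IV surface tags except a high level of CD115. P-IV cells, which the study calls GM-CSF-induced dendritic cells (DCs), are CD115hi, Ly6C-, MHCII+ and CD301b+ in its computed gate. P-IV-like cells were taken from the CD115- cells of the same library and were chosen by their raw antibody tag counts, with Ly6C at most 46, MHCII at least 73 and CD301b at least 21. This rule gave 1134 cells, which made up 34.8% of the 3256 CD115- cells in the bundle of monocyte, macrophage and DC clusters, 16.7% of the 6804 cells of the library and a part of the 11631 cells of the series. They were set against 313 P-IV cells of the same library, so both groups shared 1 mouse treatment, 1 sort and 1 sequencing run.

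The series holds 1 CITE-seq library of CD11b+ splenocytes in the steady state and 1 from mice that had received 3 injections of GM-CSF (10 µg each, 1 a day), each with an RNA library and an antibody-derived tag (ADT) library. The study's methods name C57BL/6 mice beside mutant strains and give 1 young adult age range for all its mice, whereas the strain and number of mice behind each of these libraries were not given in the sources used here. With 1 library a condition no test between mice was possible, no p-value is given, and a gene is called higher or lower by a rule of size alone. Other than for medians, intervals are 95% intervals from counts (exact Poisson or binomial, Newcombe for a difference of shares) and cover counting error only, not the spread between cells or mice. The P-IV-like cells summed to 7892484 RNA molecules (unique molecular identifiers, UMIs) and the P-IV cells to 2248291. Only 8 cell barcodes were shared by both libraries of the series.

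CD115 is the receptor for M-CSF and is encoded by Csf1r. It marks monocytes and their progeny, and it can leave the cell surface by internalization after ligand binding or by shedding after activation of metalloproteases, so the surface level and the RNA level of the receptor need not go together. CD301b, encoded by Mgl2, is a galactose-binding lectin of monocyte-derived and migratory DCs, and Cd209a encodes a DC-SIGN homologue found on monocyte-derived DCs. Immediate early genes such as Fos, Jun and Egr1 encode transcription factors that are transcribed within minutes of a stimulus, tissue dissociation included.

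The median of every tag was lower on P-IV-like cells. The intervals of tag and UMI medians given here show the sampling error of a median over cells of this library. They cover neither the full spread between cells nor that between mice. The CD115 tag, which chose the cells, had a median of 35 counts (quartiles 19 and 55, range 0 to 83) against 115 on P-IV cells (98 and 137, range 84 to 306). There was no gap at the gate, since 43 P-IV-like cells had 79 to 83 CD115 counts and 22 P-IV cells had 84 to 88. CD11c, which the rule did not use, had a median of 217 (quartiles 139 and 354) against 299 (207 and 440), a ratio of 0.726 (0.640 to 0.839). The ratio of medians was 0.787 for MHCII (402 against 511), 0.674 for CD301b (155 against 230) and 0.778 for Ly6C (14 against 18). The sum of these 4 tags was 916 against 1301, a ratio of 0.704 (0.627 to 0.798), whereas RNA UMIs a cell were alike, with medians of 6759.5 against 6883 (0.982, 0.910 to 1.05). The groups overlapped widely in every tag but CD115. At the lower CD301b limit, the 44 P-IV-like cells with 21 to 25 CD301b counts held Mgl2 at 233 CPM (UMIs of the gene scaled to 1000000 UMIs of the group) and Cd209a at 211 CPM, and the 83 CD115- cells with 16 to 20 counts, just outside, held 138 and 168 CPM.

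**Figure D1:**
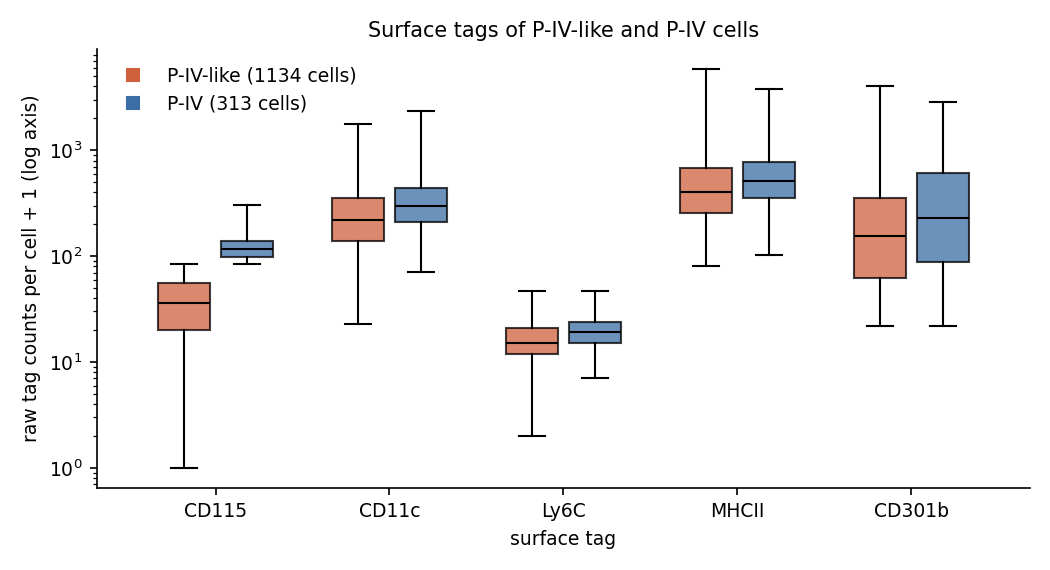
Raw counts of the 5 surface tags a cell, with 1 added, on a log axis, for P-IV-like (orange) and P-IV cells (blue). Boxes span the quartiles with the median as a line and whiskers reach the lowest and highest cell. The CD115 boxes are apart because the gate at 84 counts separates them, and the other 4 tags overlap with lower medians in P-IV-like cells.

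The RNA of the 3 marker genes is given as a description. Mgl2 encodes CD301b and Csf1r encodes CD115, whose tags chose the cells, so neither gives independent support for the label. Cd209a stood at 483 CPM (467 to 498) in P-IV-like cells, from 3809 UMIs, and at 383 CPM (358 to 410) in P-IV cells, a ratio of 1.26 (1.17 to 1.36), which was 0.935 (0.848 to 1.03) within RNA cluster 0 alone and 1.05 without RNA cluster 3. Mgl2 stood at 517 against 451 CPM, a ratio of 1.15 (1.07 to 1.23). Csf1r stood at 174 against 203 CPM, a ratio of 0.855 (0.769 to 0.954). In the cells without CD301b, P-III-like and P-III, Mgl2 was 36.7 and 36.5 CPM and Cd209a was 133 and 71.7 CPM, and in P-I classical monocytes they were 25.1 and 32.3 CPM. P-III-like and P-III cells were set apart by the CD301b tag itself, so their lower Mgl2 is no test. In neutrophils of the same library, which should lack these genes, Mgl2 was 12.4 CPM, Cd209a 1.42 CPM and Csf1r 6.48 CPM. In the 1791 cells labelled Granulocyte, Mgl2 was 0.829 CPM and Cd209a 2.49 CPM, but Csf1r was 114 CPM. Csf1r RNA was thus not particular to the groups compared here. H2-Aa, the alpha chain of the MHCII molecule I-A, was 6252 against 5589 CPM. In the steady-state library 5 CD115- cells met the same raw limits, and since tag scales differ between the libraries this is a count only.

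Over all genes both groups were close. Of 8878 genes with at least 50 UMIs over both groups, 93.7% lay within 1.5-fold and the median ratio was 0.991 (quartiles 0.894 and 1.10). By the rule of at least 1.5-fold, 310 genes were higher in P-IV-like cells (3.49%) and 252 were lower (2.84%). Of the 5713 genes with at least 200 UMIs, 73 were higher (1.28%) and 42 lower (0.735%), so most of the genes past 1.5-fold had few UMIs. Mitochondrial genes took 4.34% of UMIs in P-IV-like and 4.35% in P-IV cells, and ribosomal protein genes 18.9% and 18.4%.

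**Figure D2:**
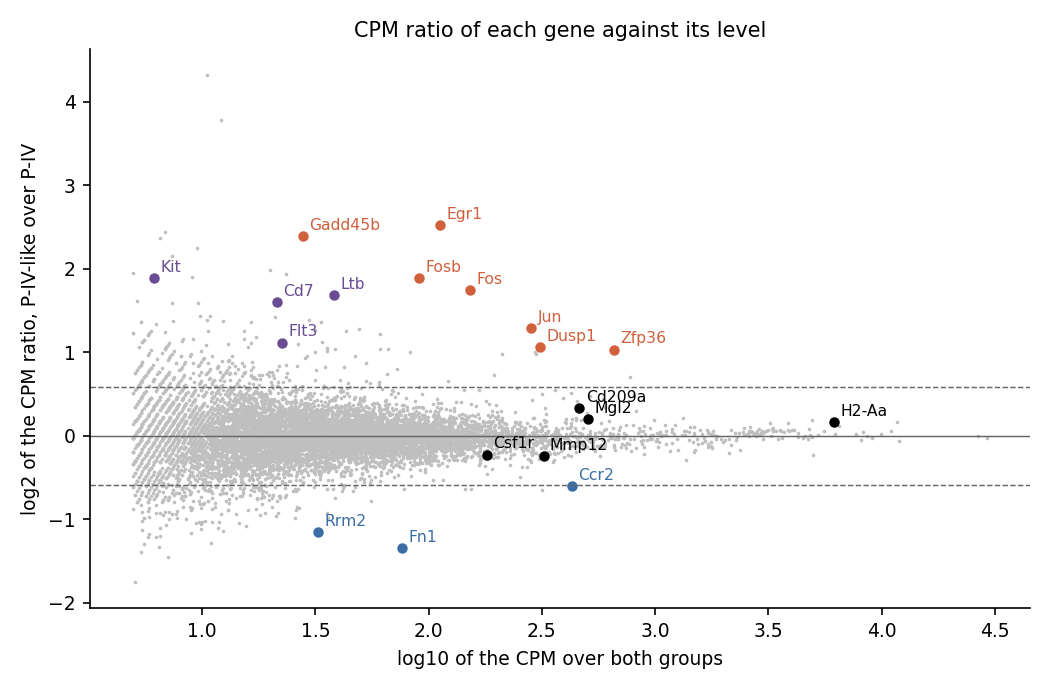
Log2 of the CPM ratio, P-IV-like over P-IV, against log10 of the CPM over both groups, 1 point a gene for genes with at least 50 UMIs, with dashed lines at 1.5-fold. Immediate early genes and Gadd45b (orange) and DC progenitor markers (purple) lie above, Fn1, Ccr2 and Rrm2 (blue) below, and the P-IV marker genes (black) near 0. 5 genes of which 1 cell holds nearly all UMIs lie outside the axes.

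The genes furthest above 1, leaving out those of which 1 cell held over 25% of the UMIs, were Egr1, D930030I03Rik, Gadd45b, Gm29440, Ifitm1, Snx29, Emp1, Ptger3, Dyrk2, Tnf, Kit and Fosb. By the lower bound of the interval they were Egr1, Gadd45b, Fosb, Fos, Emp1, Ltb, Jun, Ifitm1, D930030I03Rik, Gm29440, Cd7 and Zfp36. Egr1 had 1078 UMIs in 371 P-IV-like cells and 53 UMIs in 26 P-IV cells, or 137 against 23.6 CPM, a ratio of 5.74 (4.40 to 7.79). Gadd45b, a growth arrest and stress gene, stood at 33.8 against 6.23 CPM (5.26, 3.18 to 10.1). Emp1, an epithelial membrane protein gene, was 23.7 against 5.78 CPM (3.96, 2.34 to 7.84), and Ifitm1, an interferon-induced membrane protein gene, 11.5 against 2.22 CPM. Tnf, the inflammatory cytokine, had 85 UMIs against 6.

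The genes furthest below 1 were Kazald1, Chaf1b, Mybl2, Fn1, Cdca7, Asap2, Rad54l, Gm18025, Zmym6, Brca2, Wdr90 and Cenph. By the upper bound they were Fn1, Kazald1, Rrm2, Chaf1b, Rad54l, Hmox1, Mcm5, Uhrf1, Mcm2, Gins2, Cdca7 and Stmn1. Fn1, the fibronectin gene (GRCm38 chr1:71585520-71653200), stood at 56.6 against 144 CPM, a ratio of 0.393 (0.340 to 0.455). Hmox1, haem oxygenase, was 29.4 against 58.3 CPM (0.504, 0.405 to 0.630). Stmn1, a microtubule regulator of dividing cells, was 279 against 439 CPM, a ratio of 0.636. Chaf1b, Mybl2, Cdca7, Rad54l, Brca2, Rrm2, Mcm5, Uhrf1, Mcm2 and Gins2 act in DNA replication, its regulation or DNA repair.

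In 11 genes past 1.5-fold 1 cell held over 25% of the UMIs. Mcpt8 and Prss34, mast cell protease genes of basophils, had 142 and 105 UMIs in a single P-IV-like cell each and 0 and 1 UMIs in P-IV cells. Ccl5 had 120 UMIs against 2, of which 1 cell held 47.5%. Cxcl10 (25.7% in 1 cell), Rsad2 (27.3%), Lyz1 (43%) and Cxcl9 (30.1%) were also higher in P-IV-like cells. The 4 globin genes measured were lower in P-IV-like cells, and a single cell held 98.6% of the Hbb-bs UMIs and 99.3% to 99.7% of those of Hba-a1, Hba-a2 and Hbb-bt, each of which had P-IV UMIs in 1 cell alone.

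Among the 18 immediate early and heat shock genes, all of which were measured, 13 were at least 1.5-fold higher in P-IV-like cells and none was 1.5-fold lower, with a median ratio of 2.01, beside 3.49% of all genes higher and a median of 0.991. Fos was 179 against 53.4 CPM, a ratio of 3.34 (2.78 to 4.08). Its partner Fosb was 107 against 28.9 CPM (3.69, 2.89 to 4.86), and Jun was 325 against 133 CPM (2.45, 2.18 to 2.78). Zfp36, which encodes an mRNA-destabilizing protein that limits cytokine RNA, was 737 against 360 CPM (2.04, 1.90 to 2.20), and Dusp1, a phosphatase of MAP kinases, 350 against 167 CPM (ratio 2.09). The other members past 1.5-fold were Ier3 (2.42), Hspa1a (2.39), Nr4a1 (2.03), Ier2 (2.0), Atf3 (1.97), Junb (1.63) and Hspa1b (1.59). Of the genes below that size, Jund was 1.36 and Dnajb1 1.13, whereas the heat shock genes Hsp90aa1 (0.998), Hspa8 (0.986) and Hsph1 (0.768) did not stand higher. Taken per cell, the list made up a median of 6382 CPM of a P-IV-like cell (quartiles 4513 and 8598) and 4291 CPM of a P-IV cell (3411 and 5827), so the shift lay over much of the group and the groups overlapped.

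The promoters of Fos, Fosb and Dusp1 are shown because these genes stood higher together and are textbook targets of factors that bind the cyclic AMP response element. Each line gives the 250 bases before the RefSeq start on GRCm38.p6, 5′ to 3′ along the gene, with matches to TGACG or its reverse complement CGTCA in capitals.
Fos, chr12:85473640-85473889, plus strand: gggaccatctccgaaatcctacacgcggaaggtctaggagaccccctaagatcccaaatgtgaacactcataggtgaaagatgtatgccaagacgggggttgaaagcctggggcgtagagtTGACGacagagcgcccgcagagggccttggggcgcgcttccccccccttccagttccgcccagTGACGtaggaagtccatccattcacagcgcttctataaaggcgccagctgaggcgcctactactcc
Fosb, chr7:19310046-19310295, minus strand: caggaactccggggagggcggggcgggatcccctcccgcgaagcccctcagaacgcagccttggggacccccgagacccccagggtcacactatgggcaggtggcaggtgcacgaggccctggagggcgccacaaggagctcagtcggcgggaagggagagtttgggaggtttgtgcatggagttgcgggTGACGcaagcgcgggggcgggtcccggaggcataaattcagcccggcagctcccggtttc
Dusp1, chr17:26508473-26508722, minus strand: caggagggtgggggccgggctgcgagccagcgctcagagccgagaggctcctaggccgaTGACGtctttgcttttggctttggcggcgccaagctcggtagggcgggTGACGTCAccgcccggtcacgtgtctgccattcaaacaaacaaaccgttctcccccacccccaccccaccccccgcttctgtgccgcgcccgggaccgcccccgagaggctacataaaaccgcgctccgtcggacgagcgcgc
Fos holds matches that begin at -129 and -66 from the start, Fosb at -60 and Dusp1 at -191 and -143, the last within the full palindrome TGACGTCA. Of the 18 listed genes 14 had a promoter sequence. Of these, 7 held TGACG on either strand in any of their promoters and 1 held TGACGTCA. Of all 32851 promoters, counted singly, 17.8% held TGACG and 1.55% held TGACGTCA. The CArG box, CC and GG around a run of A or T, was searched too. It was held by 1 of the 14 genes, Zfp36, and by 1.47% of all promoters. The measures are unlike, since a gene with several promoters has more chances of a match. A match is a description of these letters, and binding was not measured.

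By their point values these RNAs were lower in each next bin of the CD115 tag, in both groups. Egr1 was 289 CPM (250 to 332) in the 110 P-IV-like cells with 0 to 9 CD115 counts, 175 CPM in the 526 cells with 10 to 39 and 69.8 CPM in the 498 cells with 40 to 83. In P-IV cells it was 31.9 CPM at 84 to 115 counts and 14.7 CPM (8.39 to 23.8) above that. Fos went from 377 through 204, 118 and 63.0 to 43.1 CPM over the same bins, and Zfp36 from 994 through 841, 585 and 418 to 299 CPM. The whole list of immediate early and heat shock genes summed to 8419, 7293, 5937, 5103 and 4602 CPM. Levels thus differed among the P-IV-like bins and across the gate at 84 counts. Between the P-IV bins the Egr1 and Fos intervals overlapped, whereas those of the list sum did not (4974 to 5235 against 4475 to 4731 CPM). The sum of the other 4 tags had medians of 692, 865, 1023, 1269 and 1330 in these bins, so it moved along with CD115. The share of cells in RNA cluster 3 moved too, at 48.2%, 42.2%, 20.9%, 5% and 4.58%. The part of either in this order was not tested by the bins. Within RNA cluster 0, Egr1 was 135 CPM at 0 to 39 CD115 counts, 60.3 CPM at 40 to 83 and 19.4 CPM in P-IV cells. The list summed to 6461, 5553 and 4787 CPM there.

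Fn1 and Ccr2 ran the opposite way. Ccr2, the receptor by which monocytes leave the bone marrow, was 215 CPM at 0 to 9 CD115 counts, then 328, 471, 509 and 663 CPM. Fn1 was 32.1, 35.8, 81.9, 76.0 and 217 CPM, and the intervals overlapped between the 0 to 9 and 10 to 39 bins and between the bins on either side of the gate. Csf1r RNA was 159, 153, 197, 181 and 226 CPM, and Mgl2 varied between 445 and 528 CPM. Cd209a was 416, 533, 446, 418 and 347 CPM and showed no single order.

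**Figure D3:**
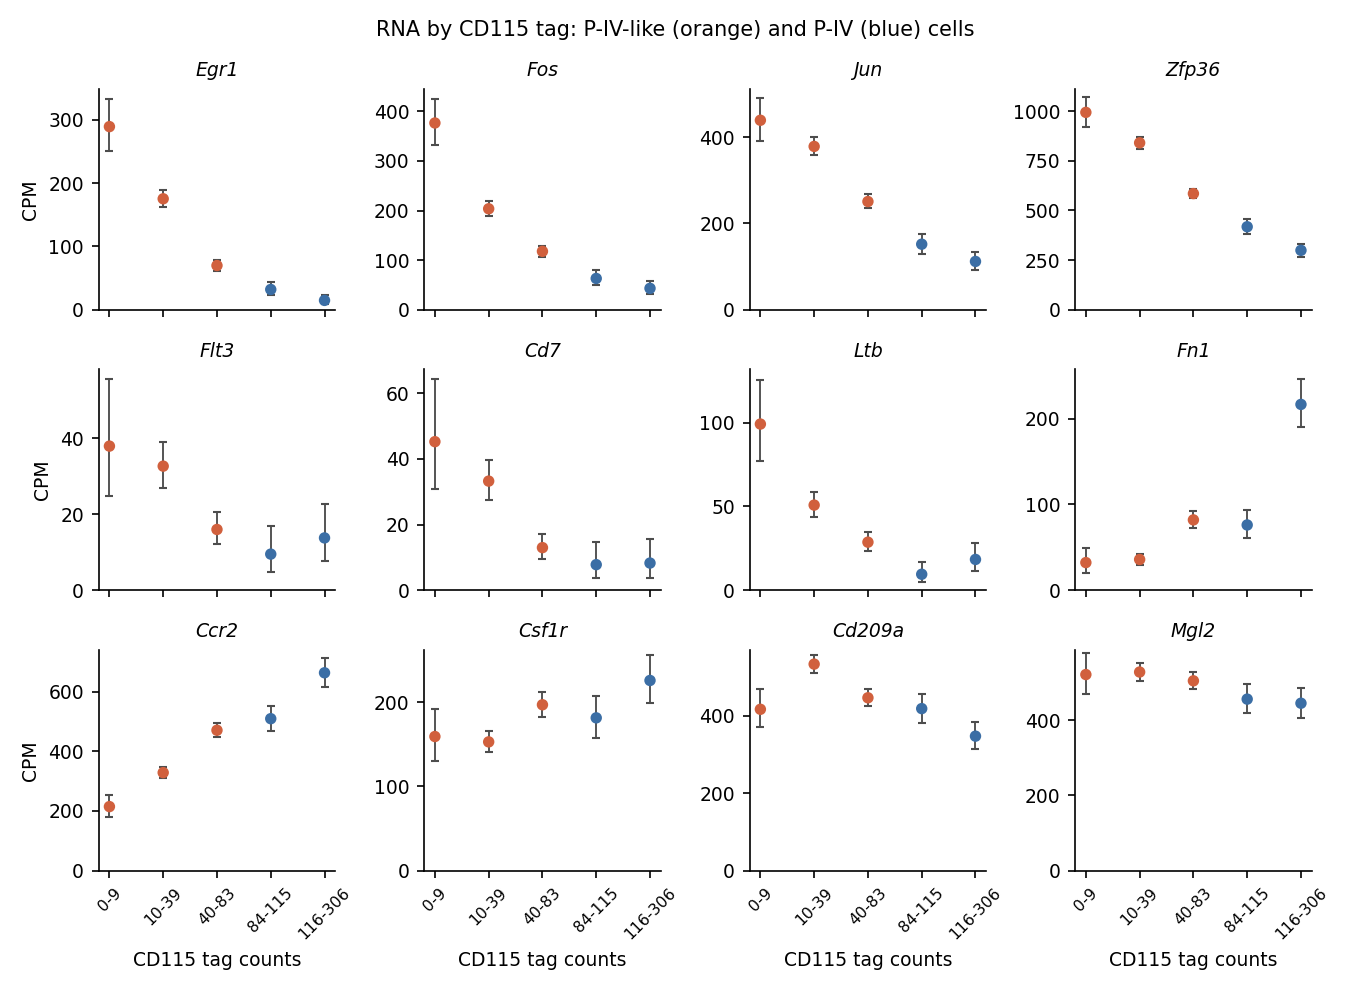
CPM of 12 genes (each on its own axis from 0) by CD115 tag counts a cell, with exact 95% Poisson intervals, for 3 bins of P-IV-like cells (orange) and 2 bins of P-IV cells (blue). Egr1, Fos, Jun and Zfp36 are lower in each next bin, from 289 to 14.7 CPM for Egr1, Ccr2 is higher in each next bin, and Mgl2 is nearly level.

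By RNA cluster, the groups had different makeup. Cluster 0 of the bundle held 36.1% (33.3 to 38.9) of P-IV-like and 53.4% (47.7 to 59.0) of P-IV cells, and cluster 3 held 33.4% (30.7 to 36.3) against 4.79% (2.71 to 7.78). Put the other way, 96.2% (93.8 to 97.9) of the 394 cells of cluster 3 in both groups lay below the CD115hi gate, against 71.0% (67.1 to 74.7) in cluster 0 and 78.4% over all clusters. Cluster 1 held 8.47% against 13.1% and cluster 8 held 7.85% against 15%. Clusters 7 (3.97% and 4.79%) and 10 (6.17% and 6.39%) took like shares. Both groups fell almost wholly in the monocyte-macrophage-DC types of the deposited annotation, and 14 P-IV-like cells (1.23%) and 1 P-IV cell carried the label Progenitor DC. Scrublet called 14 P-IV-like (1.23%) and 6 P-IV cells (1.92%) as doublets.

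**Figure D4:**
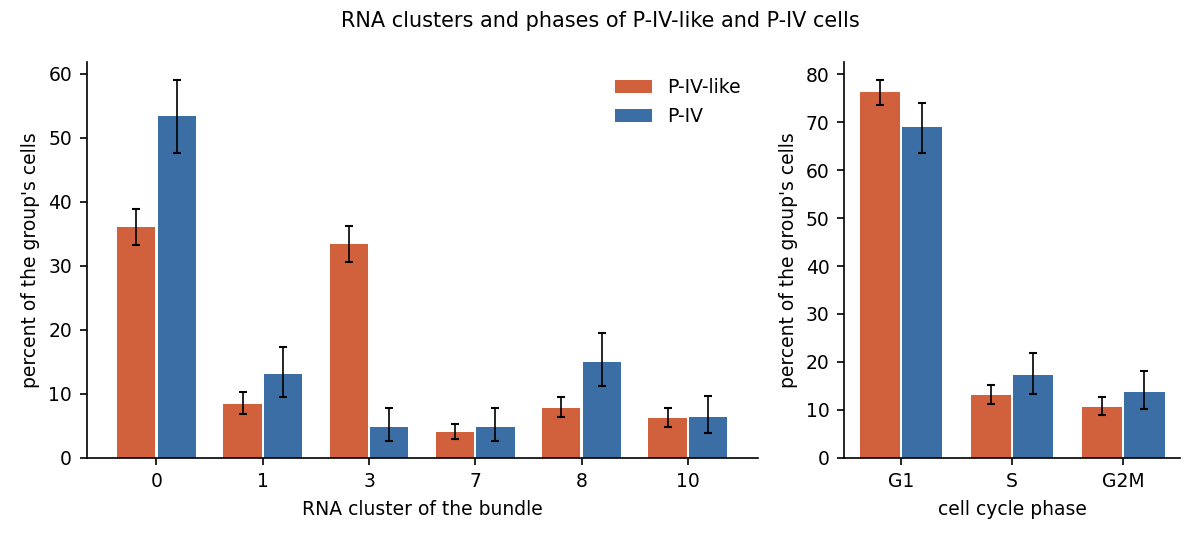
Percent of P-IV-like (orange) and P-IV cells (blue) in 6 RNA clusters (left) and in the deposited cell cycle phases (right), with exact 95% binomial intervals. Cluster 3 takes 33.4% of P-IV-like and 4.79% of P-IV cells, and S and G2M shares are lower in P-IV-like cells.

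Within the P-IV-like group, the 379 cells of cluster 3 and the 409 cells of cluster 0 were separated by the genes that clustered them, so their difference is a description. Cluster 3 cells held less RNA of Fcrls (7.45 against 72.7 CPM), an Fc receptor-like scavenger gene, of Fn1 (14.5 against 71.3 CPM), of the fatty acid receptor gene Cd36 (16.1 against 69.9 CPM), of the B cell linker gene Blnk (27.8 against 85.7 CPM) and of Mmp12, macrophage elastase (196 against 527 CPM). They held more Cd209a (696 against 470 CPM) and like amounts of Mgl2 (610 against 575 CPM) and Csf1r (181 against 196 CPM). The immediate early and heat shock list summed to 8676 CPM in cluster 3 and 5927 CPM in cluster 0. The median CD115 tag was 26 counts in cluster 3 and 44 in cluster 0.

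The immediate early genes also stood higher in P-IV-like cells within cluster 0. In 409 P-IV-like and 167 P-IV cells of that cluster, Egr1 was 91.0 against 19.4 CPM (4.59, 3.05 to 7.51), Fosb 74.8 against 26.2 CPM (2.82) and Fos 96.9 against 41.4 CPM (2.32, 1.72 to 3.24). There 9 of the 18 listed genes were at least 1.5-fold higher, with a median ratio of 1.48, beside 2.98% of all genes higher and 2.51% lower in this comparison. Weighted to the P-IV cluster shares 8 of 18 were higher. Without cluster 3, 8 of 18 were also higher, beside 2.78% of all genes (1.97% lower). In cells whose sum of the other 4 tags lay within the P-IV quartiles, 872 to 1881 counts, 11 of 18 were higher with a median ratio of 1.82, beside 4.58% of all genes (3.22% lower), and the median tag sums were then 1181 and 1301. Hspa1a, by contrast, was 30.9 against 27.0 CPM within cluster 0.

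The same list was compared across the CD115 gate in other cells, and the differences between these comparisons were not tested. Between P-III-like and P-III cells 7 of 18 listed genes were at least 1.5-fold higher, beside 12.3% of all genes, and the list's sums stood 1.14-fold. Between CD115-low and CD115hi cells with Ly6C (P-I-like and P-I) 5 of 18 were higher, beside 5.87% of all genes, and the sums stood 0.990-fold. In the steady-state library the P-I comparison gave 13 of 18 higher, beside 5.44% of all genes, and sums 1.62-fold apart, so this RNA was also higher in the CD115-low cells of the untreated library.

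Genes that mark DC progenitors formed the second group. Of 16 listed genes 9 were measured at 50 or more UMIs, and 7 of them were at least 1.5-fold higher in P-IV-like cells with none lower, a median ratio of 2.17, beside 3.49% of all genes higher. Weighted to the P-IV cluster shares 3 were higher. Between P-III-like and P-III cells 9 of 9 measured genes were higher (median 22.4), beside 12.3% of all genes. That pair differed in makeup. RNA cluster 9, which the study calls progenitor-like, held 22.2% of P-III-like and 0% of P-III cells, and cluster 12 held 13.6% and 0%. Between P-I-like and P-I cells 5 of 10 were higher (median 2.15), beside 5.87%. The steady-state P-I comparison gave 4 of 11 higher, beside 5.44%, and 1 lower (median 1.30). Higher progenitor RNA below the CD115 gate was thus not particular to P-IV-like cells, and these comparisons were not tested against each other. Flt3, the FLT3 ligand receptor of DC progenitors and classical DCs, had 201 UMIs in 145 P-IV-like cells and 26 in 17 P-IV cells, or 25.5 against 11.6 CPM (2.17). Kit, the stem cell factor receptor, had 58 UMIs in 43 cells against 4 in 4 cells (3.70, 1.53 to 15.7). Ltb, lymphotoxin beta, was 44.9 against 13.8 CPM (3.21, 2.25 to 4.86), Cd7, a lymphoid and progenitor surface protein gene, 25 against 8.01 CPM (3.04), Asb2, a ubiquitin ligase subunit gene, 19.6 against 8.45 CPM (2.27), Ffar2, the short-chain fatty acid receptor gene, 71.6 against 42.7 CPM (1.67) and Dnase1l3, a secreted DNase gene, 16.5 against 10.7 CPM (1.52). Bcl11a (1.18) and Tcf4 (1.12), transcription factor genes, lay near 1. Of the earlier progenitor genes, Cd34 had 9 UMIs in P-IV-like cells, Mpo 1 and Elane 1.

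The progenitor genes were unevenly spread over the clusters. Without cluster 3, 5 of the listed genes were still at least 1.5-fold higher in P-IV-like cells, beside 2.78% of all genes. That comparison kept clusters 9 and 12, which held 10 and 12 P-IV-like and 2 and 1 P-IV cells. Clusters 0, 1, 7, 8 and 10 held 3, 0, 1, 4 and 0 of the 58 Kit UMIs in P-IV-like cells, and cluster 3 held 27. For Flt3 they held 14, 8, 7, 18 and 2 of 201, and cluster 3 held 124. The remaining UMIs lay in smaller clusters, so few cells held most of the Kit RNA outside cluster 3. Within cluster 0 Flt3 was 4.92 against 9.30 CPM and Cd7 5.62 against 5.92 CPM, from 14 and 11 Flt3 UMIs and 16 and 7 Cd7 UMIs, and no listed progenitor gene of the 3 with 50 or more UMIs passed 1.5-fold. In P-IV-like cells of cluster 3 Flt3 was 48.6 CPM, Cd7 43.5 CPM, Ltb 68.2 CPM and Kit 10.6 CPM, against 4.92, 5.62, 9.83 and 1.05 CPM in cluster 0. Leaving out the cells with the label Progenitor DC left Flt3 at 23.2 against 10.3 CPM, Kit at 5.18 against 1.34 CPM, Cd7 at 21.2 against 8.05 CPM and Ltb at 39.4 against 13 CPM. In the 393 Progenitor DC cells of the library Flt3 was 109 CPM, Kit 107 CPM and Cd7 243 CPM. Ltb was also 749 CPM in granulocytes, in which Flt3 was 1.24 CPM, and the neutrophil genes S100a8 (84.3 against 70.3 CPM) and S100a9 (90.8 against 89.8 CPM) were nearly level between P-IV-like and P-IV cells.

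Genes of DNA synthesis were lower. All 16 S phase genes had 50 or more UMIs and 14 of them were at least 1.5-fold lower in P-IV-like cells, beside 2.84% of all genes, with a median ratio of 0.541 and sums of 429 against 731 CPM. In G1 cells alone, and within cluster 0, where 6 were measured, none (0) was lower by this size, 1 was when weighted to the P-IV cluster shares, and 4 were without cluster 3. The phases were themselves scored from S phase and G2/M genes, so the G1 result was largely fixed by the choice of cells. Rrm2, the ribonucleotide reductase subunit, was 25.5 against 56.5 CPM (0.450, 0.359 to 0.568). The others past this size were Gins2 (0.455), Mcm2 (0.472), Cdc6 (0.50), Uhrf1 (0.507), Tyms (0.516), Mcm5 (0.528), Mcm6 (0.540), Hells (0.542), Dut (0.581), Pcna (0.598), Mcm3 (0.644), Rrm1 (0.654) and Mcm7 (0.657). Of the 16 G2/M genes none passed 1.5-fold in either direction and the median ratio was 0.971, with Hmgb2 (0.986) and Top2a (0.728) the best counted. By the deposited phases 23.7% (21.3 to 26.3) of P-IV-like and 31.0% (25.9 to 36.4) of P-IV cells were in S or G2M, a difference of -7.27 percentage points (-13.1 to -1.77). Within cluster 0 the shares were 14.7% and 12%, in the reverse order with overlapping intervals, and the S phase list summed to 187 and 188 CPM there. Cluster 8, where it summed to 2099 CPM in P-IV-like and 2669 CPM in P-IV cells, held the smaller share of P-IV-like cells given above.

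The antigen presentation genes differed little, and their counts stand beside 3.49% of all genes higher and 2.84% lower. In the MHC class II list 1 of 15 measured genes passed 1.5-fold, H2-Oa (58.3 against 31.6 CPM), which encodes a subunit of the inhibitory H2-O chaperone, and the list's sum was 34947 against 31777 CPM. In the CD115 bins that sum was 38102, 35537, 33769, 31675 and 31885 CPM, while the MHCII tag was lower on P-IV-like cells. Of 11 measured costimulation and T cell ligand genes Cd40 (1.75) and Cd83 (1.51) were higher and the median was 1.04. Cd86 was 52.5 against 38.7 CPM.

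The genes that the study lists for P-IV cells, chosen on these or matched samples and so no independent evidence, were mostly at like levels. Of the 32 from single cells none passed 1.5-fold in either direction, 11 lay above 1 and the median was 0.874. Mmp12 was 307 against 363 CPM (0.845), Il1rl1, the IL-33 receptor, 59.4 against 74.3 CPM (0.798), Fgfr1 239 against 245 CPM (0.976), Cd200r1 97.6 against 117 CPM (0.836) and Itgax, which encodes CD11c, 313 against 371 CPM (0.845). Of the 12 top genes that the study names from a longer list in bulk RNA, Egr2 was higher (2.17) and Fcrls lower (0.631), and the median was 0.963. All counts of this paragraph stand beside 3.49% of all genes higher and 2.84% lower. In the study's Th2 list Cd40 was the single one of 9 measured genes past 1.5-fold, with a median of 1.05. In the list of tag genes none of 7 passed 1.5-fold and the median was 1.10. Ly6c2, which encodes a part of the Ly6C tag's target, had 30 UMIs against 4.

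Few genes of the classical DC lists passed 1.5-fold, set beside 3.49% of all genes higher and 2.84% lower. Of 7 measured cDC2 genes Flt3 alone passed 1.5-fold (median 1.10), Zbtb46, the classical DC transcription factor gene, was 43.2 against 33.8 CPM (1.27, 0.994 to 1.66), and Clec4a4, the 33D1 antigen of cDC2s, had 4 UMIs against 1. In the cDC1 list Clec9a was lower (4.43 against 7.56 CPM) as 1 of 5 genes (median 0.983), and Xcr1 had 5 UMIs against 3. Of 5 activated DC genes Ccl5, of which 1 cell held 47.5% of the UMIs, and Marcksl1 (1.61) were higher (median 1.24), beside 3.49% of all genes, and Ccr7 had 13 UMIs in 4 P-IV-like cells and 0 in P-IV cells. None of 3 plasmacytoid DC genes passed 1.5-fold (median 0.971), Siglech being at 0 in both groups, and Bst2 (0.971) and Tcf4 were the best counted. The study applied RNA cutoffs for cDC2s (Itgax, H2-Aa, Clec4a4 and Sirpa) to cells outside the bundle. Applied here to bundle cells instead, which is not the study's cDC2 group, they were met by 40 cells, of which 4 were P-IV-like and 1 was P-IV, and in those 40 cells Mgl2 was 18.6 CPM and Cd209a 93 CPM.

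Of the monocyte, macrophage and chemokine receptor genes past 1.5-fold, all but Nr4a1 and Ccrl2 were lower, and the counts that follow stand beside 2.84% of all genes lower and 3.49% higher. In the classical monocyte list Ccr2 (384 against 584 CPM, 0.657), Chil3 (0.593) and Fn1 were lower, 3 of 4 measured genes, with a median of 0.625. Within cluster 0 Ccr2 was 460 against 626 CPM, short of 1.5-fold, and Fn1 was 71.3 against 131 CPM (0.544). In the non-classical list Cd36 (0.651) and Ace (0.525) were lower and Nr4a1 higher among 12 genes (median 0.885). Of 9 macrophage genes C1qb (0.597), Axl (0.552) and Hmox1 were lower (median 0.878). The defining red pulp gene Spic had 32 UMIs against 2 and Mertk 4 against 3, both too few to be measured. C1qa, the gene of another C1q chain, was also too low, with 30 UMIs against 2, of which 1 P-IV-like cell held 16. In the chemokine receptor list Ccr2 was lower and Ccrl2, an atypical receptor gene, higher (24.3 against 8.90 CPM, 2.67) among 5 genes (median 0.823).

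Among 13 measured chemokine and cytokine genes 7 were higher and 1 lower (median 1.51), beside 3.49% and 2.84% of all genes. In 3 of the 7, Ccl5, Cxcl9 and Cxcl10, 1 cell held over 25% of the UMIs. Besides these and Tnf the genes higher were Il1b (38.4 against 14.7 CPM, 2.58), Cxcl2 (2.06) and Ccl2 (1.80), and Ccl17, a ligand of CCR4, was lower (27.7 against 42.3 CPM, 0.655). In the type I interferon list Ifit3 (2.58), Rsad2 and Ifit1 (1.78) were higher among 13 genes (median 1.17). In the GM-CSF receptor and STAT5 target list Socs3 (2.41) and Socs1 (1.60), feedback inhibitors of cytokine signalling, were higher and Ccl17 lower of 16 genes (median 1.05), while the receptor chain gene Csf2ra was 235 against 226 CPM. In the list of CSF1R and its processing none of 10 genes passed 1.5-fold (median 0.947), with Tyrobp (1.01) and Spi1 (1.13) the best counted, and the sheddase gene Adam17 was 70.2 against 80.1 CPM.

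The remaining lists gave few differences, which also stand beside 3.49% of all genes higher and 2.84% lower. In alternative activation genes Egr2 was higher and Chil3 and Ccl17 lower of 11 (median 1.12). Of 14 C-type lectin genes Clec9a was lower (median 1.02), Clec10a, the paralogue of Mgl2, was 178 against 122 CPM (1.46), and reads could be split between these near copies. In Fc receptors Fcrls was lower of 6 (median 0.999). In integrins none of 9 differed by this size (median 1.09), with Itga4 (1.09) and Itgax the best counted. In transcription factors Nr4a1 and Egr2 were higher of 21 (median 1.12), and Irf4 was 58.8 against 54.3 CPM. In lysosome genes Ctsd (0.645) and Cd63 (0.610) were lower of 15 (median 0.995). In metallothionein and iron genes Hmox1 was lower of 8 (median 0.926). In glycolysis Hk3 was lower (0.505) of 15 (median 0.939). In survival genes Pmaip1, which encodes the death-promoting protein NOXA, was higher (92.9 against 46.3 CPM, 2.0) of 11 (median 1.16).

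Markers of other cells were at low levels in both groups, and the counts below stand beside 3.49% of all genes higher and 2.84% lower. Of 9 measured neutrophil genes Il1b and Csf3r (1.51) were higher (median 1.07), and the list summed to 314 against 271 CPM. No B cell or T cell gene reached 50 UMIs, with sums of 3.93 against 2.22 CPM and of 2.66 against 0.890 CPM. In NK cell genes Klrd1 alone was measured and was higher (74.2 against 36 CPM, 2.05), and Ncr1, Gzma and Prf1 were at 0. In the basophil, mast cell and eosinophil list Mcpt8 and Prss34, each from 1 cell, were higher of 3. The 4 measured genes of the erythroid and platelet list were the globin genes described above (median 0.00259).

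**Figure D5:**
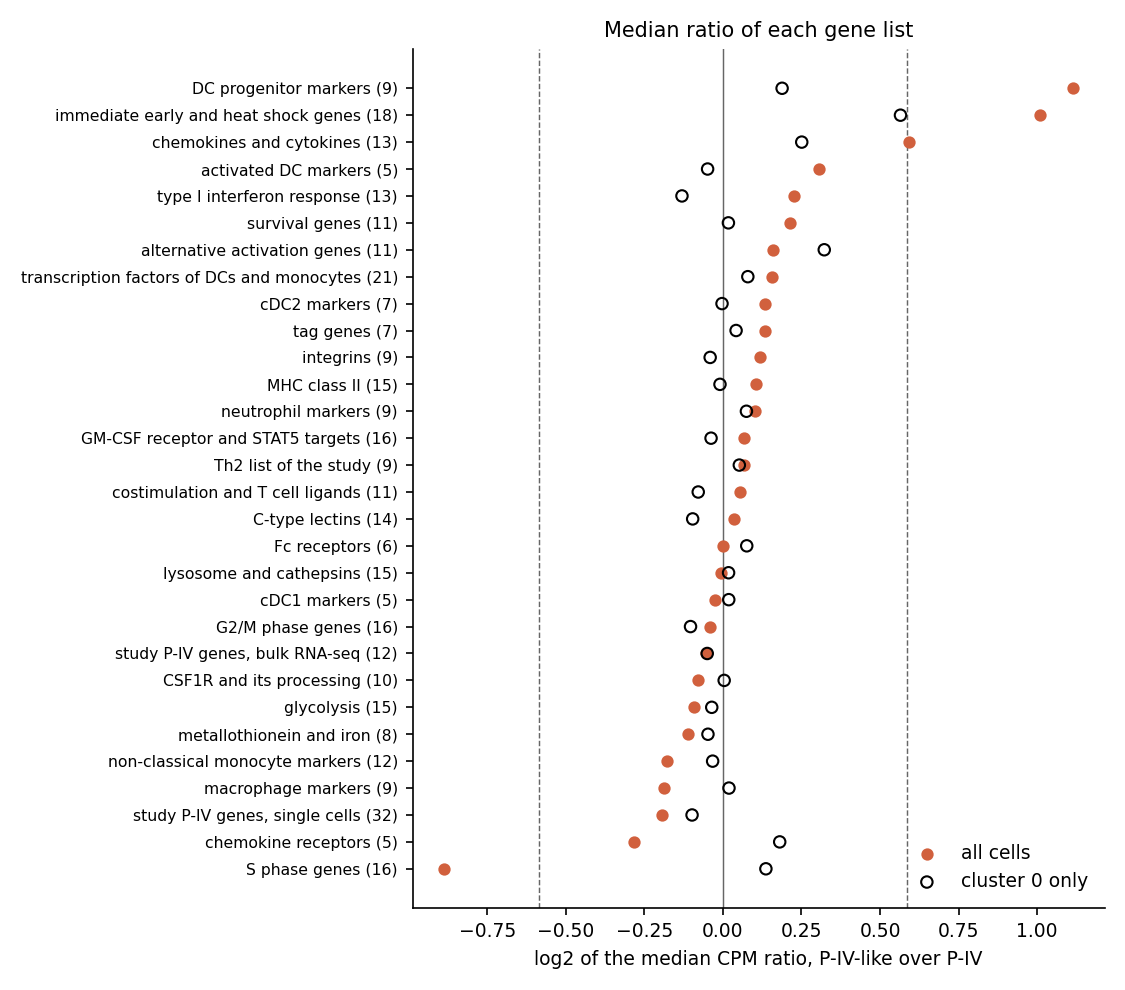
Log2 of the median CPM ratio, P-IV-like over P-IV, for lists with at least 5 measured genes (number of measured genes in brackets), over all cells (orange) and within cluster 0 where at least 3 genes were measured there (open circles), with dashed lines at 1.5-fold. DC progenitor markers (2.17) and immediate early and heat shock genes (2.01) lie furthest above 1, and S phase genes (0.541) furthest below. Within cluster 0 the immediate early list stays at 1.48.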

How the data were processed

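CD11b+ splenocytes were sorted and run on the 10x Chromium 3′ platform, 1 library for each state. The authors aligned RNA reads to mm10 with Cell Ranger (version 3.0.2), counted tags with CITE-seq-Count and clustered the cells with Seurat (version 3.6.0). The RNA and tag values used here were raw UMI counts per gene or tag and cell, as deposited and not normalized. Clusters, gates, phases, cell type labels and the mitochondrial percent of each cell were taken from the deposited annotation by the authors. No column of another series was present (0).

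RNA counts were summed over the cells of each group and scaled to CPM. Ratios had 0.5 counts added to each sum, genes needed 50 or more UMIs over both groups, and 1.5-fold was the rule of size. Intervals at 95% were exact Poisson for levels and Clopper-Pearson for shares and ratios, medians had order-statistic intervals (a ratio of medians the outer bounds of both), and the phase difference had a Newcombe interval. With 1 library a state no test was run. The ratio and its interval were tested on simulated Poisson sums of genes, which held no spread between cells. The other steps were not tested this way. The genes named were the 12 highest and 12 lowest by ratio and by the interval bound nearest to 1, leaving out genes with over 25% of UMIs in 1 cell, and list members past 1.5-fold or, where a list had none, its best counted members. Other members given were chosen after their values were seen. Members and lists were chosen with earlier results of these data known. Doublets were called with Scrublet in scanpy 1.11.5 and kept. Python 3.11.15, numpy 2.4.6, scipy 1.17.1, pandas 2.3.3 and matplotlib 3.10.9 were used. Promoters came from RefSeq on GRCm38.p6, and gene positions from the GENCODE annotation of GRCm38. Alternatives covered the fold, the UMI minimum, added counts, thinning to 2000 UMIs a cell, means over cells, scaling, doublets, phase, clusters, tag ranges and mitochondrial share.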

Additional observations from a re-analysis of the deposited data

How the results depend on the processing

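With 1 library a state and few P-IV cells, genes under 200 UMIs carry most of the counts past 1.5-fold, and spread between mice could not be seen. No paired analysis was possible because both groups came from 1 library and no test was run. Of the genes past the rule of size, 83 were higher and 34 lower at 2-fold, 73 and 42 at 200 or more UMIs, and 742 and 662 at 10 or more UMIs. Within cluster 0, 204 were higher, the Cd209a ratio was 0.935, the CD11c tag ratio was 0.860 and the difference in S or G2M cells turned to 2.69 percentage points. Weighted to the P-IV cluster shares, the Cd209a ratio was 1.03 and the phase difference turned to 0.383. Among cells with 0 to 9 CD115 counts 477 genes were lower, the Cd209a ratio was 1.09 and the CD11c ratio 0.527. The Cd209a ratio was also 1.13 in G1 cells, 1.43 within the CD301b quartiles of P-IV and 1.14 with at most 5% mitochondrial UMIs. Without cluster 3, chosen after seeing the data, 165 genes were lower, the Cd209a ratio was 1.05 and the phase difference -1.69. The comparisons at like tag sum, across other gates and without the cells labelled Progenitor DC were also chosen after seeing the data. The cause of these shifts was not tested. The Csf1r ratio lay between 0.787 and 0.939 in 13 alternatives, within its interval in each. The Egr1 ratio ranged from 3.74 to 12.2, the Fn1 ratio from 0.228 to 0.544, and the immediate early and heat shock genes past 1.5-fold from 8 to 15. S phase genes past 1.5-fold ranged from 0 (G1 cells, cluster 0) to 14 and DC progenitor genes from 0 (cluster 0) to 9 (10 or more UMIs).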
